A study of Mus musculus with 25 samples.

Results

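Agrp (ENSMUSG00000005705), the gene for agouti-related neuropeptide, was 1 of 55487 genes in the table of mouse Achilles tendon libraries and was chosen by its measured difference in counts between wheel-running and cage mice. The running-against-cage values below are therefore a description of why the gene is of interest and carry no test. Genotype and sex played no part in that choice, so those differences were tested. All animals were 3 months old, and the 25 bulk RNA-seq libraries came from female and male mice. AMPKcKO mice (cKO), a conditional knockout of AMPK that the series title ties to AMPKα1, gave 6 wheel-running libraries, and wild-type (WT) mice gave 6. At cage activity there were 6 cKO and 7 WT libraries. Each group held 3 libraries of either sex, except WT cage females with 4. The Cre driver, the deleted exons, the strain, the running distance and the time between the last run and tissue collection were not given in the sources used here. Nothing stated that libraries of one group came from separate animals, so p-values measure only the spread between these libraries.

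Agouti-related peptide is best known from neurons of the hypothalamic arcuate nucleus, which also make neuropeptide Y and the transmitter GABA and which drive feeding. The peptide binds the melanocortin receptors MC3R and MC4R, blocks the activating peptides cut from pro-opiomelanocortin, and lowers the receptors' basal activity. Its closest relative, agouti, encoded by the nonagouti gene (symbol a), acts in the same way on MC1R in skin and sets coat colour. Both peptides end in a domain held together by disulfide bonds between cysteines, and this domain is the part that contacts the receptor. In hypothalamic neurons, fasting and AMPK activity are known to raise Agrp transcription.

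The end of the coding sequence of each gene is shown because it encodes that shared receptor-binding domain. Each line gives the last 150 coding bases before the stop codon of transcripts Agrp-201 and a-201 in GENCODE M21 (GRCm38), 5′ to 3′ on the coding strand, with in-frame cysteine codons in capitals.
Agrp: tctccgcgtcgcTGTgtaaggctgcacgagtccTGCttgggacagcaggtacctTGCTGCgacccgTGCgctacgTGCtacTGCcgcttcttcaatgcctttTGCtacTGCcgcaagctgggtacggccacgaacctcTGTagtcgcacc
nonagouti: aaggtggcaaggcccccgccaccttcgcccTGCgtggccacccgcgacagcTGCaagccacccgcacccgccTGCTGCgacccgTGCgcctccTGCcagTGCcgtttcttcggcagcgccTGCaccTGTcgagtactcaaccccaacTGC
Both coding sequences had 393 bases, and 10 of the 11 cysteine codons of each lay in these stretches.

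In GRCm38, Agrp lay on the minus strand of chromosome 8, with an annotated span of chr8:105566698-105637393. The span held 3 transcripts built from 9 distinct exons. Agrp-201 occupied positions 105566698 to 105568298 and had 661 bases in 5 exons. Its exons 1 and 2 were 5′ UTR, and exons 3, 4 and 5 carried 130, 83 and 180 coding bases. Agrp-203 and Agrp-202 began farther upstream. Agrp-202 had the same coding bases in these exons, and the last exon of Agrp-203 was annotated with 141 coding bases. The first exon of Agrp-202, at 105637280 to 105637393, was the only Agrp exon that overlapped exons of other genes. All 114 of its bases lay within exons of both Ctcf on the plus strand and Gm5914 on the minus strand. Strand could set apart only Ctcf reads there, since Gm5914 lies on the same strand as Agrp. Whether counting used strand was not stated.

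Library totals ran from 13193228 to 45724243 counts, with a median of 24538109. Prkaa1, the gene for AMPKα1, ranged from 16.2 to 22.6 CPM (counts scaled to a common library size) in cKO runners and from 15.6 to 31.1 CPM in WT runners. In cage mice it ranged from 13.9 to 21.2 CPM in cKO and from 13.4 to 31.2 CPM in WT. The cKO-minus-WT log2 fold change of Prkaa1 was -0.32 ± 0.17 (SE) in runners and -0.41 ± 0.16 in cage mice. Neither passed edgeR's quasi-likelihood test (adjusted p = 0.464 and 1.00), and with the deleted exons not given, the gene's total count is a limited check of the labels. Cre reads numbered 7 to 42 in 11 of the 12 cKO libraries and 0 in every WT library. The library labelled cKO cage female 3 had no Cre reads. The library labelled WT running male 2 had no Cre reads but carried eGFP reads at 119 CPM, which apart from it exceeded 10 CPM only in cKO libraries. All 6 cKO runners carried eGFP above 10 CPM. The tenocyte genes Scx, a transcription factor of tendon cells, and Tnmd, a tendon membrane protein, were counted in all 25 libraries, with lowest values of 11.5 and 15.3 CPM. Skeletal muscle fibre markers were also counted, at 25678 to 243019 CPM summed over 18 genes in runners and 29626 to 197744 CPM in cage mice. In bulk tissue, more cells of a type and more RNA per cell cannot be told apart.

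Agrp was higher in the runners of both genotypes. It averaged 3.12 ± 1.56 CPM in cKO runners and 3.85 ± 2.00 CPM in WT runners (SD, n = 6 each). In cage mice it averaged 0.419 ± 0.427 CPM in cKO (n = 6) and 0.571 ± 0.506 CPM in WT (n = 7). The mean over 12 runners was 6.97 times the mean over 13 cage libraries. CPM here are scaled for library composition by TMM, edgeR's trimmed-mean factors.

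Female cKO runners had 4.82, 3.03 and 2.85 CPM of Agrp, and male cKO runners had 3.47, 0.324 and 4.24 CPM. Female WT runners had 2.40, 3.02 and 4.28 CPM, and male WT runners had 2.04, 7.55 and 3.83 CPM. Among runners, then, 10 of 12 libraries lay between 2.04 and 4.82 CPM, with cKO male 2 far below the rest and WT male 2 far above. Female cKO cage mice had 0.243, 1.19 and 0.258 CPM, and male cKO cage mice had 0.619, 0 and 0.205 CPM. Female WT cage mice had 0.673, 0.258, 1.62 and 0.632 CPM, and male WT cage mice had 0.438, 0.258 and 0.116 CPM. The running and cage groups overlapped through a single runner, since 11 of 12 runners lay above the highest cage library. That runner, cKO male 2 at 0.324 CPM, lay below 6 of the 13 cage libraries.

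**Figure D1:**
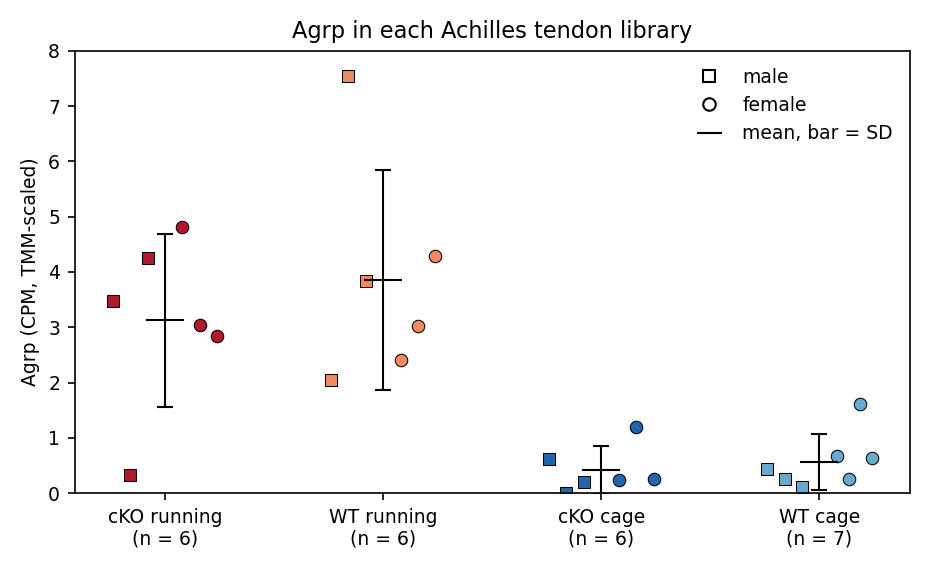
Agrp level (TMM-scaled CPM) in each library, by genotype and activity, with squares for males, circles for females, and a line and bar for the group mean and SD. All runners except the cKO male at 0.324 CPM sit above the highest cage library at 1.62 CPM.

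The counts behind these levels were small. In cKO runners Agrp had 120, 71 and 70 counts in females and 87, 14 and 120 in males. In WT runners it had 61, 99 and 83 counts in females and 49, 183 and 75 in males. The cage groups had 69 counts over 6 cKO libraries and 104 over 7 WT libraries, against 482 and 550 over the 6 cKO and 6 WT runners. Single cage libraries ranged from 0 counts, in cKO male 2, to 38 counts, in WT female 1. A count of 0 in cKO cage male 2 allows up to 3 counts, or 0.107 CPM on that library's scale, and this limit covers counting error only. All 12 runners and 11 of 13 cage libraries had more than 3 counts, so low-level Agrp RNA was detected in most cage tendons too.

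Per kilobase of transcript, the authors' FPKM values gave the same order of groups. Agrp averaged 7.84 ± 3.85 FPKM in cKO runners and 9.19 ± 5.33 FPKM in WT runners (SD, n = 6 each), against 0.968 ± 0.999 FPKM in cKO cage (n = 6) and 1.34 ± 1.17 FPKM in WT cage mice (n = 7). Within each library, Agrp's place among genes with an FPKM above 0 had a median of percentile 73.5 in runners, with a range of 32.0 to 89.5. In cage libraries the median was percentile 44.7, with a range of 0 to 58.1. Agrp thus stood in the upper part of the detected transcriptome in most runners and near its middle in most cage libraries. The means of cKO and WT runners differed by less than 1 SD, and so did the means of cKO and WT cage mice.

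In the model of all genes, the running-minus-cage log2 fold change of Agrp was 2.92 ± 0.44 (SE) as the mean of both genotypes. It was 2.89 ± 0.64 in cKO and 2.95 ± 0.61 in WT. Of 19155 genes tested, 273 (1.43%) were called at an adjusted p under 0.05, of which 117 (0.611%) were higher and 156 (0.814%) lower in runners. Agrp had the 2nd largest log2 fold change of the 117 higher genes, while the median over all genes was 0.01. These figures are part of what chose the gene. By sex and genotype, the log2 fold change was 2.64 ± 0.88 in cKO females, 3.17 ± 0.92 in cKO males, 2.04 ± 0.78 in WT females and 4.01 ± 0.95 in WT males. Agrp also varied more between libraries of a group than most genes. Its biological coefficient of variation, edgeR's estimate of replicate scatter, was 0.685, larger than in 89.4% of tested genes and in 95.8% of the 1981 genes within 0.5 log2 CPM of its abundance.

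Genotype made no detectable difference to Agrp at this depth and spread. In runners the cKO-minus-WT log2 fold change was -0.38 ± 0.57 (SE; 95% interval -1.57 to 0.80; edgeR adjusted p = 0.798). In cage mice it was -0.32 ± 0.63 (95% interval -1.64 to 1.00; edgeR adjusted p = 1.00). The genotype-by-running interaction, which is the running effect in cKO minus that in WT, was -0.06 ± 0.88 (95% interval -1.90 to 1.77; edgeR adjusted p = 0.987). The intervals still include changes of more than 1 log2 unit in either direction for the interaction and in the lower direction for each genotype comparison. No gene was called for genotype in runners or in cage mice by this test (0%), although 2173 and 217 genes had an unadjusted p under 0.05. The interaction likewise called 0 genes, with 1377 at an unadjusted p under 0.05. An exact two-sided permutation test on log2 CPM gave a cKO-minus-WT difference of -0.49 in runners (p = 0.556, adjusted over 4 such tests 0.742) and -0.54 in cage mice (p = 0.428, adjusted 0.742). Leaving out single libraries turned the direction of these small differences: without WT running male 2 the difference in runners was 0.047, and without WT cage female 3 the difference in cage mice was 0.10. With eGFP carriage as a covariate they were -1.17 in runners and -0.67 in cage mice. The interaction was 0.54 without cKO cage female 2, 0.34 without WT running male 2, 0.21 without cKO running male 2, 0.20 without cKO cage male 1 and 0.13, 0.069 and 0.043 without WT cage male 3, female 2 and male 2.

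Sex differences in Agrp were also within the spread. The male-minus-female log2 fold change was -0.52 ± 0.43 over both activities (95% interval -1.42 to 0.37; edgeR adjusted p = 0.751), in a comparison that called 118 genes (0.616%). The running effect in males was 3.59 ± 0.66 and in females 2.34 ± 0.59. Their difference was 1.25 ± 0.85 (95% interval -0.55 to 3.05; edgeR adjusted p = 0.537). That comparison called 0 genes, with 2336 at an unadjusted p under 0.05. Among cage mice alone the male-minus-female difference of log2 CPM was -1.18 (exact permutation p = 0.0659, adjusted 0.263), and among runners it was -0.33 (exact permutation p = 0.755, adjusted 0.755).

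**Figure D2:**
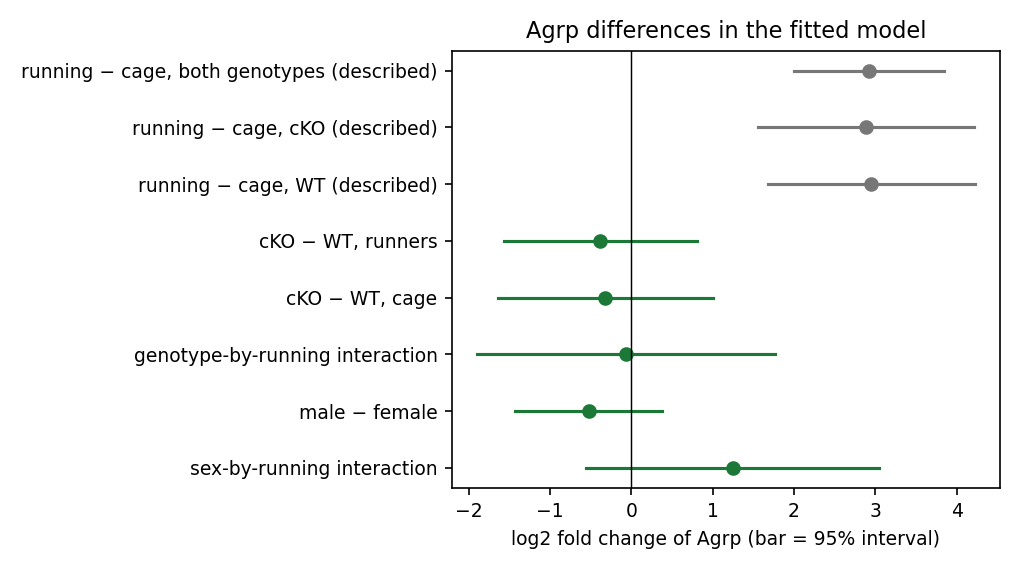
Log2 fold change of Agrp in each comparison (points) with its 95% interval (bars). The running-against-cage values in grey chose the gene and are described only, while the intervals of the genotype, sex and interaction terms in green all include 0.

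Several properties of the libraries were set beside Agrp within runners and within cage mice. Over the 12 runners, Agrp log2 CPM and the share of counts from muscle markers had Pearson's r = 0.32 and Spearman's rho = -0.01 (permutation p = 0.322 and 0.991), and r was -0.12 without the pair of libraries farthest from the median share. With the share of mitochondrial ribosomal RNA, r was 0.43 and rho 0.46 (permutation p = 0.178 and 0.134), and r was 0.49 without the 2 farthest. With the total count, r was -0.46 and rho -0.48 (permutation p = 0.132 and 0.123), and r was -0.55 without the 2 farthest. None of 6 such relations passed after adjustment; the lowest adjusted p was 0.402 for rho and 0.492 for r. The 3 relations in the 13 cage libraries had r between -0.29 and -0.21 and rho between -0.29 and 0.02. Without the 2 farthest libraries r in cage mice was -0.21 for muscle markers, 0.34 for mitochondrial ribosomal RNA and -0.61 for the total count, so the last 2 values depended on those libraries. The runner with the lowest Agrp, cKO male 2, had the lowest muscle share of all runners, 3.61%, and their lowest mitochondrial ribosomal RNA share, 13.9%. With the muscle markers as a covariate the running difference of Agrp was 2.92, and with mitochondrial ribosomal RNA as a covariate it was 3.28. Carriage of eGFP moved with genotype and running, because every cKO runner carried it. With eGFP carriage as a covariate the difference was 2.45 as the mean of genotypes and 2.20 in cKO. Without the eGFP libraries it could not be fitted in cKO, and in WT it was 2.66. Without the pair of libraries whose reporter reads went against their labels it was 2.67.

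The melanocortin system around Agrp was sparse in these tendons. Of the activating ligand, Pomc, which encodes pro-opiomelanocortin, averaged 0.832 ± 0.597 FPKM in cKO runners and 0.318 ± 0.234 FPKM in WT runners (n = 6 each), against 0.333 ± 0.228 FPKM in cKO cage (n = 6) and 0.393 ± 0.321 FPKM in WT cage mice (SD, n = 7). Its running-minus-cage log2 fold change was 0.34 ± 0.48 (edgeR adjusted p = 0.799), with libraries of all groups overlapping. The nonagouti gene had 0 counts in all 25 libraries. Per length, Agrp averaged more than Pomc, the only other ligand transcript detected, in runners and in cage mice of both genotypes. The relative that shares its domain was not detected.

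Among the receptors, those for Agrp peptide itself were close to undetected. Mc4r and Mc3r, which encode the main targets of the peptide in brain, had 24 and 9 counts summed over all 25 libraries, and Mc1r, the receptor of pigment cells, had 13. None of these 3 passed the filter on low counts. Mc2r, the corticotropin receptor of the adrenal cortex that also occurs in mouse fat cells, averaged 0.627 ± 0.434 FPKM in cKO runners and 0.770 ± 0.378 FPKM in WT runners, against 0.810 ± 0.507 FPKM in cKO cage and 1.20 ± 1.46 FPKM in WT cage mice. Mc5r, a receptor known from exocrine glands, averaged 0.260 ± 0.249 FPKM in cKO runners and 0.263 ± 0.108 FPKM in WT runners, against 0.188 ± 0.125 FPKM in cKO cage and 0.150 ± 0.0802 FPKM in WT cage mice. The running-minus-cage log2 fold change was -0.42 ± 0.36 for Mc2r (edgeR adjusted p = 0.627) and 0.25 ± 0.44 for Mc5r (edgeR adjusted p = 0.850). Of 5 melanocortin receptor genes, 2 were tested and neither was called, where 1.43% of all genes tested were called for running.

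The accessory and Agrp-binding genes were expressed at higher levels. None of the 8 tested of 9 was called for running, against 1.43% of all genes tested. Mrap, the partner that carries MC2R to the cell surface, averaged 19.1 ± 18.3 FPKM in cKO runners and 13.5 ± 6.43 FPKM in WT runners, against 10.1 ± 5.03 FPKM in cKO cage and 11.2 ± 7.005 FPKM in WT cage mice. Its log2 fold change for running was 0.35 ± 0.28 (edgeR adjusted p = 0.605). Sdc3, the syndecan that binds Agrp peptide at the surface of hypothalamic neurons, averaged 19.8 ± 7.45 FPKM in cKO runners and 20.5 ± 5.87 FPKM in WT runners, against 16.2 ± 5.49 FPKM in cKO cage and 14.5 ± 3.59 FPKM in WT cage mice. For running, the log2 fold change of Sdc3 was 0.12 ± 0.11 (edgeR adjusted p = 0.652). The related syndecan gene Sdc2 had 0.51 ± 0.15 and came nearest to the threshold of the 8 (edgeR adjusted p = 0.0937). Log2 fold changes were 0.10 for Sdc1 and -0.05 for Sdc4, and they were -0.05 for Atrn and 0.005 for Atrnl1, which encode attractins, and -0.03 for Mgrn1, which encodes the ubiquitin ligase mahogunin. Mrap2, a partner of MC4R, was not tested because of its low counts. The median log2 fold change of the 8 was 0.05 and 5 of 8 were above 0, against a median of 0.01 and 52.2% above 0 over all genes tested.

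**Figure D3:**
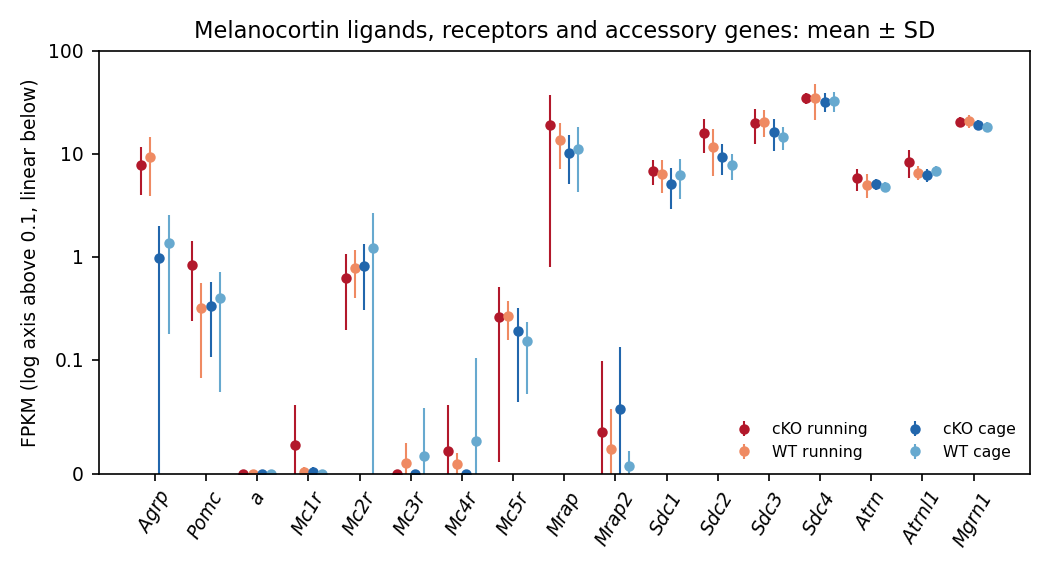
Mean FPKM with SD of Agrp, the other melanocortin ligands, the 5 receptors and the accessory genes in cKO runners, WT runners, cKO cage and WT cage mice, on an axis that is logarithmic above 0.1 and linear below. Agrp is the gene whose runners (7.84 and 9.19 FPKM) stand well above its cage mice (0.968 and 1.34 FPKM).

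Genes that process prohormones or act on Agrp in the hypothalamus were set against the share of all genes called for running. Of 12 prohormone processing genes, 8 were tested and 1 rose, where 0.611% of all genes tested rose. The gene was Furin, a convertase of the secretory pathway, at 49.0 to 69.4 CPM in runners (median 62.0) against 43.8 to 56.3 CPM in cage mice (median 53.2). Its log2 fold change was 0.24 ± 0.06 (edgeR adjusted p = 0.0469), and the groups overlapped. The Furin call stood in 4 of 16 alternative analyses, with adjusted p from 0.00500 to 0.347. It also stood in only 5 of 25 analyses that left out a single library, namely cKO running male 3, WT running male 1, WT cage female 1, and WT cage males 2 and 3. Of 16 genes known to regulate Agrp in hypothalamus, 13 were tested and none was called, against 1.43% of all genes tested. They include Foxo1 (-0.21), a transcription factor that raises Agrp, Stat3 (0.15), which mediates repression by leptin, and the leptin receptor gene Lepr (-0.07). Prkaa1 and Prkaa2, the AMPK catalytic subunits, had log2 fold changes for running of 0.04 and -0.45 (edgeR adjusted p = 0.912 and 0.360).

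Of 12 partner genes that mark Agrp neurons in the arcuate nucleus, 6 were tested for running. None was called, against 1.43% of all genes tested, and 3 of the 6 had positive log2 fold changes. Npy, the neuropeptide made in the same arcuate neurons, ranged from 0.162 to 5.77 CPM in runners (median 0.824) and from 0.0790 to 1.16 CPM in cage mice (median 0.503). Its log2 fold change was 0.78 ± 0.43 (edgeR adjusted p = 0.408), and the ranges overlapped. Slc32a1, the transporter that loads GABA into vesicles, had 6 counts over all 25 libraries, and the GABA-synthesising genes Gad1 and Gad2 had 32 and 28. Cartpt, a peptide gene of neighbouring arcuate neurons, had 6.

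Among 61 other neuropeptide and peptide hormone genes, 24 were tested, none rose and 1 fell, against 0.611% and 0.814% of all genes tested. The gene that fell was Ostn, which encodes osteocrin, also called musclin, a peptide made by muscle and bone-forming cells. Ostn ranged from 8.73 to 21.2 CPM in runners (median 16.9) against 13.04 to 55.0 CPM in cage mice (median 30.8), with overlapping ranges. Its log2 fold change was -1.03 ± 0.18 (edgeR adjusted p = 0.00415). The adjusted p for Ostn was 0.111 with eGFP carriage and 0.0601 with mitochondrial ribosomal RNA as a covariate.

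Markers of the tissues in which Agrp is best known overlapped between runners and cage mice. The 13 neuron markers, of which 4 were tested, summed to between 4.17 and 10.4 CPM in runners and between 3.08 and 9.46 CPM in cage mice. Stmn2, a growth-associated tubulin regulator, alone had 2.58 to 6.67 CPM in runners. Snap25, a vesicle fusion protein, was too low to be tested and had counts in 16 of 25 libraries. Of 4 tested neuron markers, 4 had positive log2 fold changes for running in cKO and 1 in WT, and none was called. For the adrenal gland, another site of Agrp expression, 13 markers were listed and 3 were tested. The sum over the 13 was 1.88 to 7.67 CPM in runners and 3.62 to 11.5 CPM in cage mice, and none was called. Of all genes tested, 1.43% were called for running as the mean of genotypes. The steroid enzyme genes Cyp11b1 and Cyp11b2, which define adrenal cortex, had 10 and 1 counts over the 25 libraries.

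Nerve sheath markers had the highest median change of the marker lists as the mean of genotypes, with a higher median in cKO than in WT. All 12 Schwann cell and nerve markers had positive running-minus-cage log2 fold changes, with a median of 1.06 against 0.01 for all genes, but none was called. The median was 1.86 in cKO, with 12 of 12 positive, and 0.12 in WT, with 10 of 12 positive. Their summed level was 113 to 1519 CPM in cKO runners and 84.0 to 336 CPM in WT runners, against 57.1 to 360 CPM in cKO cage and 72.7 to 589 CPM in WT cage mice. Agrp had a log2 fold change of 2.89 in cKO and 2.95 in WT. The part of nerve content in the Agrp difference was not tested. Positive changes for running were seen in 53.9% of all genes tested in cKO and in 50.4% in WT. Macrophage markers had positive changes in 9 of 10 in cKO (median 0.49) and 9 of 10 in WT (median 0.43). Mast cell markers had them in 7 of 7 in cKO (median 1.06) and 5 of 7 in WT (median 0.21). Keratinocyte markers had them in 5 of 5 in cKO (median 1.53) and 1 of 5 in WT (median -0.23). Muscle fibre markers had them in 0 of 18 in cKO (median -0.54) and 15 of 18 in WT (median 0.21). Tenocyte markers had them in 5 of 12 in cKO and 3 of 12 in WT. For adipocyte markers they were 7 of 8 in cKO (median 0.20) and 1 of 8 in WT (median -0.17). Mural and smooth muscle markers had 7 of 8 in cKO (median 0.55) and 2 of 8 in WT (median -0.16). Erythroid markers had 5 of 5 in cKO (median 0.80) and 2 of 5 in WT (median -0.10). Endothelial markers had 3 of 8 in cKO and 0 of 8 in WT, and bone and cartilage markers had 2 of 5 and 3 of 5. These differences between genotypes are counts and medians and were not tested as lists. As the mean of genotypes, 1.43% of all genes tested were called for running. The single call in these lists on that measure was the tenocyte-list gene Cilp, a cartilage matrix protein also found in tendon, at 0.70 ± 0.15 (edgeR adjusted p = 0.0142). Its edgeR adjusted p was 0.395 with eGFP carriage and 0.0548 with mitochondrial ribosomal RNA as a covariate. It was 0.0506 without the pair of libraries of the less common library project, both of which were cage libraries.

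No tested neighbour of Agrp on the chromosome was called for running, where 1.43% of all genes tested were called. With so few neighbours, the lack of a call says little about the locus. The 5 nearest genes with any count on either side of the compact Agrp transcript were examined, and 8 could be tested. Atp6v0d1, a subunit gene of the vacuolar proton pump that lies 651 bases away, ranged from 20.3 to 27.6 CPM in runners and from 18.5 to 28.7 CPM in cage mice. Its log2 fold change was 0.12 ± 0.07 (edgeR adjusted p = 0.454). On that side, Hsd11b2, which inactivates glucocorticoids, had -0.06 ± 0.54, Zdhhc1, a palmitoyltransferase gene, had 0.13 ± 0.10, and Tppp3, a marker of tendon sheath and stem cells, had 0.41 ± 0.15 (edgeR adjusted p = 0.193). On the other side, Ripor1 had 0.28 ± 0.10 (edgeR adjusted p = 0.177). The unnamed loci there had log2 fold changes of 0.15 ± 0.20 for Gm45855, 0.27 ± 0.27 for Gm5914 and 0.80 ± 0.46 for Gm38384 (edgeR adjusted p = 0.433 for the last). Gm38250, an antisense transcript that overlaps the compact Agrp transcript, had 134 counts over 25 libraries and was not tested, and Gm8838 had 11. Gm45855, Ripor1 and Gm38384 lay within the longer annotated span of Agrp, and Gm5914 and Gm38250 lay partly within it. Ctcf, added because its exons overlap the distal Agrp exon, had -0.11 ± 0.06 (edgeR adjusted p = 0.440).

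**Figure D4:**
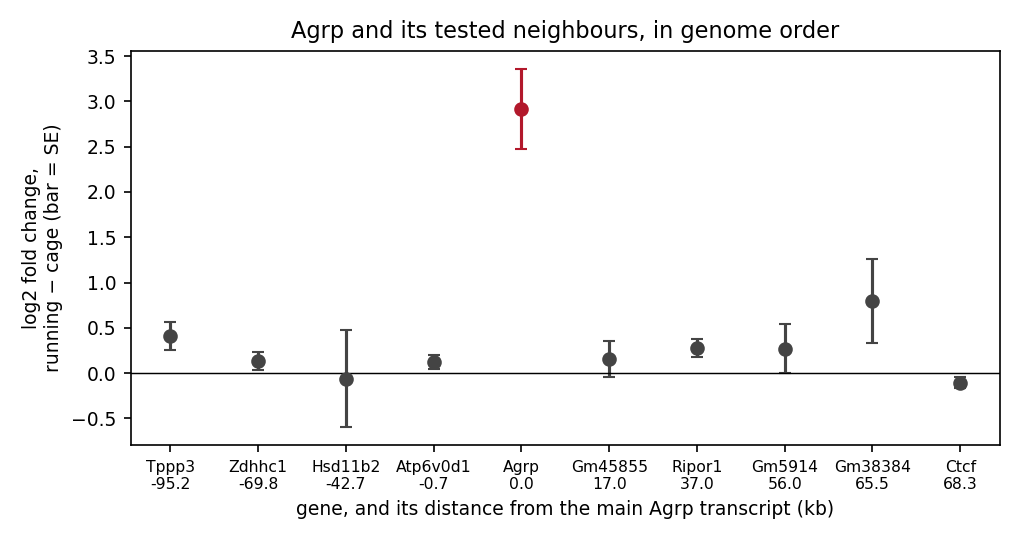
Running-minus-cage log2 fold change (points, bars are SE) of Agrp and its tested neighbours in chromosome order, with the distance of each from the compact Agrp transcript in kilobases. Agrp, which was chosen for this difference, stands at 2.92, while the neighbours lie between -0.11 and 0.80.

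The genes whose levels followed Agrp most closely were found by Spearman's rho of log2 CPM over the 25 libraries, among 11723 genes with a mean log2 CPM of at least 1. All points of such a correlation share the running contrast that chose Agrp, so the values describe likeness only. The 8 highest were Ndrg4 (0.82), a gene of the N-myc downstream-regulated family, Rgcc (0.82), a cell cycle regulator, Serpinb1a (0.81), an inhibitor of neutrophil proteases, Tspan3 (0.81), a tetraspanin, Mybph (0.79), a muscle myosin-binding protein, Plekho1 (0.79), a casein kinase interactor, Pon2 (0.79), a paraoxonase, and Sbk3 (0.76), a kinase gene. The 99th percentile of rho over all genes compared was 0.59. Within activity the likeness was lower. Ndrg4 had rho = 0.36 over the 12 runners and 0.43 over the 13 cage libraries, Tspan3 had 0.68 and 0.29, Mybph had 0.45 and 0.23, and Sbk3 had 0.62 and -0.09.

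Mybph was the gene of these 8 with a change as large as that of Agrp. It ranged from 2.76 to 70.4 CPM in runners (median 32.9) and from 0.0886 to 16.2 CPM in cage mice (median 3.15), a running-minus-cage log2 fold change of 3.12 ± 0.54. The cKO runner with little Agrp, male 2, also held the lowest values of Ndrg4 and Mybph among runners. Over the runners alone the 5 closest genes were Tmem88 and Zfp709 (0.81 each), Mgat2 (0.80), Dusp4 (0.79) and Tfcp2 (0.78). Their running-minus-cage log2 fold changes lay between -0.16 and 0.15, and only Zfp709 kept a high rho in the cage libraries, at 0.73. Tmem88 had a rho of -0.30 there. The most negative rho over 25 libraries belonged to Clock (-0.81), a core circadian transcription factor, followed by Akap9 (-0.78), a centrosome and Golgi scaffold, Trip11 (-0.78), a Golgi protein, Rbm27 (-0.76), an RNA-binding protein, and Slc4a7 (-0.76), a sodium bicarbonate cotransporter. Clock ranged from 47.1 to 72.8 CPM in runners and from 73.9 to 99.3 CPM in cage mice, with no overlap on this scale. Its deposited FPKM did overlap, at 6.67 to 17.4 in runners and 10.5 to 17.7 in cage mice. Rgcc and Plekho1 also had no overlap in CPM. These genes were picked by their rho with Agrp, which shares the running contrast. The share of all genes without overlap was not counted, so no result is drawn from the separation. In FPKM, the cKO means of Akap9, Trip11, Rbm27 and Slc4a7 were higher in runners than in cage mice, while their WT means were lower. In the model of counts they were lower in runners of both genotypes. Their log2 fold changes, in that order, were -0.40, -0.29, -0.38 and -0.41 in cKO and -0.44, -0.43, -0.22 and -0.30 in WT. The genotype-by-running interaction passed for none of them (edgeR adjusted p from 0.73 to 0.95). Akap9 averaged 61.4 ± 38.4 FPKM (SD) in cKO runners against 40.8 ± 4.86 FPKM in cKO cage mice. In WT it averaged 35.5 ± 3.97 FPKM in runners against 47.5 ± 15.7 FPKM in cage mice. The highest runner had 138 FPKM of Akap9, against a median of 39.4 FPKM over all runners. The time of day of tissue collection was not given in the sources used here.

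**Figure D5:**
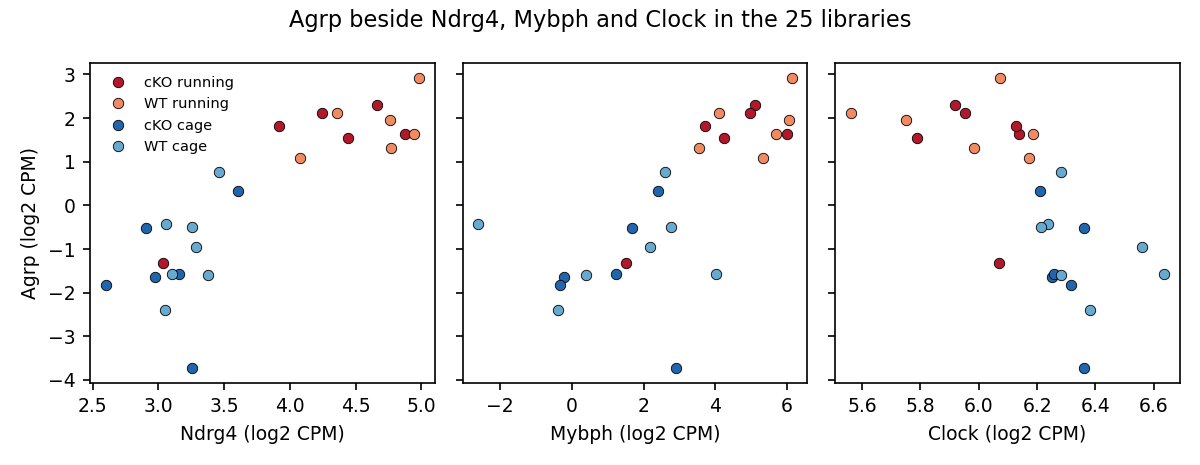
Agrp log2 CPM against Ndrg4, Mybph and Clock log2 CPM in the 25 libraries, coloured by genotype and activity. Runners and cage mice form separate clouds, and 1 cKO runner lies among the cage libraries for Ndrg4 and Mybph.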

How the data were processed

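Total RNA of whole Achilles tendons was sequenced in bulk. The submitters' processing notes name cutadapt 2.3, FastQC 0.11.8, STAR 2.7.8a, RSEM 1.3.3 and the builds GRCm38 and mm10, with no roles. The authors deposited expected counts and FPKM per gene, both as a table of the whole series; the expected counts were 100% whole numbers and were used as such. From the counts, edgeR 4.0.16 (R 4.3.3) with TMM scaling and filterByExpr kept 19155 genes, leaving out 4 reporter entries. Models held 4 genotype-by-activity means and sex (8 means for sex-by-running). SE is the log2 fold change over the root of F, p-values are two-sided with Benjamini-Hochberg adjustment over all genes, and the threshold is 0.05. Counts limit the precision of Agrp most in cage libraries. Alternatives used DESeq2 1.42.0, limma 3.58.1 on the deposited FPKM with pseudocounts of 1 or 0.1, other filters, covariates and left-out libraries. Scripts were tested on simulated counts.

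The gene and all lists were chosen with earlier results of these data known. Genes named are Agrp, every melanocortin gene, any listed gene called, the 5 nearest genes with counts on either side, and those most alike by rho (8 over all libraries, 5 over runners, 5 most negative; predicted genes left out); Ctcf and single markers were added after their values were seen. Sequences and exons are from GENCODE M21.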

Additional observations from a re-analysis of the deposited data

Results flagged for a closer look

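The Agrp level of WT cage female 3, 1.62 CPM, stood apart from the other 6 WT cage libraries, which lay between 0.116 and 0.673 CPM. Its gap to the nearest library was 0.629 of the group's range, above Dixon's 95% critical value for 7 samples. In the deposited FPKM the gap was 0.436 of the range and did not pass. Such a test marks about 1 group in 20 by chance, and 8 groups of values were examined. Without this library the cKO-minus-WT log2 fold change in cage mice was 0.10, against -0.32 with it.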

How the results depend on the processing

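The running-minus-cage log2 fold change of Agrp kept its direction in every alternative fitted, from 2.12 on log2(FPKM + 1), which compresses low values, to 3.28 with mitochondrial ribosomal RNA as a covariate, which was added after results were known. Leaving out 1 library gave 2.74 to 3.15. By genotype the range was 2.10 to 3.21 in cKO and 2.13 to 3.40 in WT. The genotype and sex differences stayed short of the threshold throughout. Their signs turned in limma-voom for genotype in cage mice (0.038) and for sex (0.000753), and without the 2 libraries with reporter reads against their labels for genotype in runners (0.050). With eGFP as a covariate the cKO-minus-WT difference was -1.17 in runners, -0.67 in cage mice and -0.50 for the interaction, and it was -0.69 in runners with mitochondrial ribosomal RNA. The male-minus-female difference was -1.23 without the eGFP libraries (edgeR adjusted p = 0.496). The sex-by-running term was 0.45 on log2(FPKM + 1) and 0.73 with mitochondrial ribosomal RNA. The interaction turned sign without the reporter-discordant libraries (0.18), on log2(FPKM + 0.1) (0.26) and with no sex term (0.076). Leaving out 1 library gave -0.89 to 0.10 for genotype in cage mice, -0.62 to 0.047 in runners, -0.46 to 0.54 for the interaction, -0.73 to -0.32 for sex and 0.67 to 2.07 for sex-by-running. The count of genes called for running, 273, was 912 in limma-voom, 715 with no filter, 637 in DESeq2, 155 and 147 on log2(FPKM + 1) and log2(FPKM + 0.1), 135 without the reporter-discordant libraries, 127 without the 2 libraries of the less common library project, 61 with mitochondrial ribosomal RNA and 11 with eGFP as a covariate; the cause was not tested. Both libraries of the less common project, cKO cage male 3 and WT cage female 4, were cage libraries. Project was therefore partly confounded with running. Leaving out 1 library gave 127 to 568 genes called, and the count moved by over 1.5 times without cKO running female 4, WT running male 2, cKO cage female 1, cKO cage males 1, 2 and 3, WT cage females 1 and 2, or WT cage male 1. With the replicate number as a block 158 genes were called and Agrp had 2.91. Deviations of same-numbered libraries of one sex from their group means had r over 0.1 in 10 of 34 pairs, from -0.59 to 0.54. Differently numbered libraries were not compared, so this check cannot exclude pairing. The numbers were not taken as pairs. Contrasts that need cKO runners could not be fitted without the eGFP libraries. Agrp had at most 38 counts in a cage library, so cage levels and differences within cage mice are limited by depth.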
